A study of Homo sapiens with 2 samples.

Results

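The ZFP36 family and other proteins that bind AU-rich messenger RNAs, or that take part in their decay, were followed in PC3 cells, a human prostate cancer cell line. The set was a fixed list of 10 genes (ZFP36, ZFP36L1, ZFP36L2, ELAVL1, KHSRP, HNRNPD, TIA1, TIAL1, ZC3H12A and CNOT1) out of 58174 gene identifiers in the deposited table. The list was chosen by function with these libraries' TPM values known, and ZFP36L1 was selected on its higher TPM after POH1 siRNA, so its difference is given as a description. The series held 2 libraries, 1 made after transfection of a control siRNA and 1 after transfection of an siRNA to POH1, the deubiquitinase of the proteasome whose gene symbol is PSMD14. The siRNA sequences, the time after transfection and the number of cultures are not stated in these sources. With 1 library per group there was no spread between replicates, and no test between the groups was made. Each difference described here is between these 2 libraries.

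AU-rich elements are stretches of A and U, often built from repeated AUUUA, in the 3′ untranslated region (3′ UTR) of short-lived messages such as those of cytokines and immediate early genes. ZFP36 (tristetraprolin), ZFP36L1 and ZFP36L2 bind these elements through a pair of CCCH zinc fingers and recruit the CCR4-NOT complex, which shortens the poly(A) tail and so starts decay. ELAVL1 (HuR) binds similar sequences and is known mostly for stabilising messages, KHSRP and HNRNPD (AUF1) for promoting decay, and TIA1 and TIAL1 for holding back translation and for assembling stress granules. ZC3H12A (regnase-1) is an endonuclease that cuts inflammatory messages at stem-loops rather than at AU-rich sites.

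The sequence that the ZFP36 proteins prefer contains the 7 letters TATTTAT, written here in DNA letters and searched on the transcript strand only, with overlapping matches counted. Of 12028 measured protein-coding genes with an annotated 3′ UTR, 29.6% held at least 1 match, and the median 3′ UTR was 909 bases long. The messages of the ZFP36 family hold the motif themselves: ZFP36 (669 bases of 3′ UTR), ZFP36L1 (1871 bases) and ZFP36L2 (1917 bases) had 3 matches each. ELAVL1 had 5 matches in 4904 bases, TIA1 and TIAL1 had 1 match each, and KHSRP, HNRNPD, ZC3H12A and CNOT1 had 0. Windows of 27 bases are shown for the 3 family members, for ELAVL1, and for 3 chemokine messages that are well-known substrates of this decay route, because they show the element in its single and its clustered form. They are GENCODE transcript sequence read 5′ to 3′, with every match in capitals.
ZFP36: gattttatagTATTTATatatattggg
ZFP36L1: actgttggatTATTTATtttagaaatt
ZFP36L2: ttgtatgtaaTATTTATttcattaatt
ELAVL1: TATTTATaccTATTTATgTATTTATtt
CXCL1: tcTATTTATTTATTTATtcattagttt
CXCL2: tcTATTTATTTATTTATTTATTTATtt
CXCL3: ctTATTTATgTATTTATttttgaaagc
The windows of the family members each hold 1 isolated match. That of CXCL2 holds 5 overlapping matches, that of CXCL1 holds 3, and that of CXCL3 holds 2. A match is a description of these letters, and binding was not measured.

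Expression is given in TPM, the unit the authors deposited, in which reads are corrected for transcript length and each library is brought to the same sum. The number of reads cannot be recovered from TPM, so depth is unknown and a counting error cannot be attached to a value. The difference of a gene was the log2(TPM + 1) value after POH1 siRNA minus that after control siRNA, so it understates the change of low genes. Its median was 0.12 over the 15008 genes with a mean of at least 1 TPM. The targeted gene PSMD14 was at 50.9 TPM after control siRNA and 35.1 TPM after POH1 siRNA, 69.0% of the control. Among 3650 other genes within 2-fold of its mean level, 8.90% were as far below the control or farther, so the knockdown does not stand out at the RNA level. The log2 difference of PSMD14 was -0.52 as deposited and -0.24 after the adjustment for GC content described below for the members. Epithelial genes were present in both libraries (KRT8 517 and 556 TPM, KRT18 455 and 454 TPM, EPCAM 124 and 141 TPM, CDH1 111 and 129 TPM), as was the mesenchymal gene VIM (482 and 421 TPM), which PC3 cells are known to express. The prostate antigen gene KLK3 was listed at 0 in both. Of marker genes of other cell types, the leukocyte markers summed to 1.59 and 2.17 TPM and the endothelial markers to 6.60 and 5.11 TPM. The fibroblast markers summed to 31.4 and 48.0 TPM, nearly all of it COL1A1 (30.9 and 47.8 TPM), while COL1A2, COL3A1, DCN and PDGFRB were each under 0.3 TPM in both libraries.

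All 10 genes were expressed, from 6.01 TPM (ZFP36) to 297 TPM (KHSRP) in the control library and from 11.7 TPM (ZFP36) to 461 TPM (KHSRP) in the POH1 siRNA library. At 1.5-fold on the log2(TPM + 1) scale, 4 of the 10 were higher after POH1 siRNA (ZFP36L1, ZFP36, ZFP36L2 and KHSRP), 1 was lower (HNRNPD) and 5 lay within 1.5-fold. By the same measure, 10.2% of all 15008 genes were higher and 8.88% were lower. Since ZFP36L1 was picked for its rise and the other members with results of these libraries known, nothing is read from the excess over that background. The median difference of the 10 genes was 0.36, and 0.22 without ZFP36L1.

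**Figure D1:**
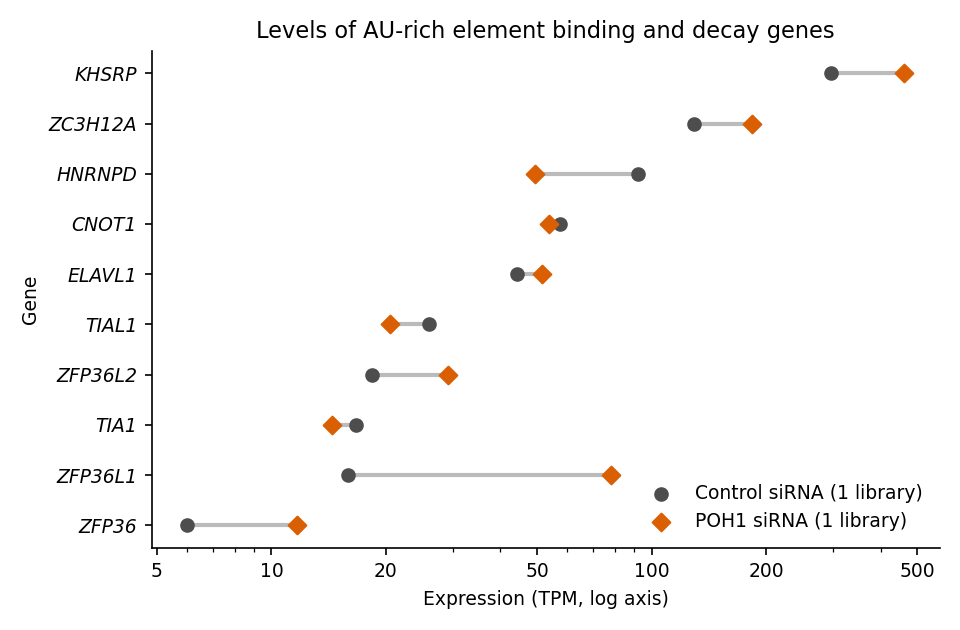
TPM of each of the 10 genes (log axis) in the control siRNA library (circles) and the POH1 siRNA library (diamonds), 1 library each, with genes ordered by their control level. ZFP36L1 has the longest line, from 15.9 to 78.1 TPM, and HNRNPD is the only gene at least 1.5-fold lower, from 92.2 to 49.3 TPM.

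In the ZFP36 family, all 3 genes had higher values after POH1 siRNA, and ZFP36L1 differed most. ZFP36L1 (ENSG00000185650) was at 15.9 TPM after control siRNA and 78.1 TPM after POH1 siRNA, a 4.91-fold higher value and a log2 difference of 2.23. It ranked 23rd from the highest of the 15008 genes. Among 3526 other genes within 2-fold of its mean level, 2 had a difference as large. Because ZFP36L1 was picked for its rise, this rank and this count are description only. ZFP36, the founding member and an immediate early gene, was at 6.01 and 11.7 TPM, 1.94-fold higher (log2 difference 0.86). ZFP36L2 was at 18.3 and 29.2 TPM, 1.59-fold higher (log2 difference 0.64), which is just above the 1.5-fold line at 0.58 and fell to 0.51, under it, when the libraries were scaled to a median log2 ratio of 0. Of other genes, 3.86% of those near the level of ZFP36 and 8.57% of those near the level of ZFP36L2 were as far above the control.

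The make-up of the family therefore differed between the libraries. Summed over the 3 genes, the family was at 40.2 TPM after control siRNA and 119 TPM after POH1 siRNA, 2.96-fold higher. ZFP36L2 was the largest part in the control library, with 45.6% of the sum, followed by ZFP36L1 with 39.5% and ZFP36 with 14.9%. In the POH1 siRNA library ZFP36L1 made up 65.6%, ZFP36L2 24.5% and ZFP36 9.82%. Without ZFP36L1 the sum of the other two was 24.3 and 40.9 TPM, 1.68-fold higher. No exon of the 3 genes overlaps that of another gene with a mean of at least 1 TPM in GENCODE release 29, so their values do not depend on how overlapping genes were separated in that annotation.

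Genes whose pair of values lay nearest to that of ZFP36L1 on the log2(TPM + 1) scale over the 2 libraries were OSER1 (16.8 and 65.5 TPM), RNPEPL1 (17.9 and 66.0 TPM), PROSER2 (16.5 and 49.4 TPM), PTPRU (22.8 and 55.8 TPM) and CHPF2 (21.5 and 52.3 TPM). Their log2 differences ran from 1.25 to 1.90, all below that of ZFP36L1. RNPEPL1 and CHPF2 overlap a gene on the opposite strand, and their values are uncertain if reads were not assigned by strand.

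The other proteins known to promote decay did not share one direction. KHSRP, a KH-domain protein that brings decay enzymes to AU-rich messages, was the most abundant of the 10 genes in both libraries, at 297 and 461 TPM. It was 1.55-fold higher after POH1 siRNA (log2 difference 0.63), and 1.93% of the 622 genes near its level were as far above the control. With the median scaling its difference was 0.50, inside 1.5-fold. HNRNPD, which encodes the AUF1 isoforms, went the other way, from 92.2 to 49.3 TPM, 1.87-fold lower (log2 difference -0.89). Among 2843 genes near its level, 3.52% were as far below the control. HNRNPD overlaps the noncoding gene HNRNPD-DT on the opposite strand, at 4.28 and 3.09 TPM, and the log2 difference of their sum was -0.87. ZC3H12A was the second most abundant of the 10, at 129 and 184 TPM, and lay within 1.5-fold (log2 difference 0.51).

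The stabiliser ELAVL1 and the translational repressors lay within 1.5-fold. ELAVL1 was at 44.2 and 51.6 TPM (log2 difference 0.22), and 45.3% of genes near its level were as far above the control or farther. TIA1 was at 16.7 and 14.4 TPM (log2 difference -0.19) and its paralogue TIAL1 at 26.0 and 20.5 TPM (log2 difference -0.33). TIA1 shares exon sequence on the same strand with C2orf42, at 8.29 and 4.31 TPM, and the log2 difference of their sum was -0.39. CNOT1, the scaffold of the CCR4-NOT complex to which the ZFP36 proteins bind, was at 57.6 and 53.6 TPM (log2 difference -0.10). It overlaps SETD6 and a noncoding gene on the opposite strand, at up to 9.97 TPM.

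The order of the levels, which TPM allows to be compared between genes, was KHSRP, ZC3H12A, HNRNPD, CNOT1, ELAVL1, TIAL1, ZFP36L2, TIA1, ZFP36L1 and ZFP36 in the control library. In the POH1 siRNA library ZFP36L1 stood in place 3 and HNRNPD in place 6, and KHSRP, ZC3H12A and ZFP36 kept the places 1, 2 and 10. Without replicates it cannot be said which neighbours in this order differ. The level of HNRNPD was 2.09 times that of ELAVL1 in the control library and 0.956 times in the POH1 siRNA library. The level of ZFP36L1 was 0.360 times that of ELAVL1 in the control library and 1.51 times in the POH1 siRNA library.

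Transcript GC content moved with these differences. Across 10114 genes with a mean of at least 5 TPM, the difference had a Spearman correlation of 0.46 with GC content; genes are not independent replicates. The 4 members that were at least 1.5-fold higher had a GC content of 54.4% to 62.6%, and the other 6 had 39.8% to 61.1%. These are medians over a gene's annotated transcripts, and they depend on the transcript taken. In the transcript with the longest coding part, ZFP36L1 had 49.5% and not 62.0%, ZFP36 had 57.9% and not 62.6%, and HNRNPD had 42.0% and not 50.1%. ZFP36L2 and KHSRP had the same value either way. After the running median of the difference at each gene's GC content was subtracted and the overall median added back, ZFP36L1 was at 2.05, ZFP36 at 0.67 and ZFP36L2 at 0.60, all still at least 1.5-fold higher. KHSRP was at 0.50 and no longer counted. HNRNPD was at -0.81 (-0.56, within 1.5-fold, with the GC content of the transcript with the longest coding part). With the median GC content, 3 of the 10 were thus higher and 1 was lower, against 12.6% and 5.19% of all genes adjusted in the same way. TIA1, TIAL1 and CNOT1, which lay below 0 as deposited, were at 0.19, 0.09 and 0.13, on the other side of 0. The part of GC content in these differences was not tested.

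**Figure D2:**
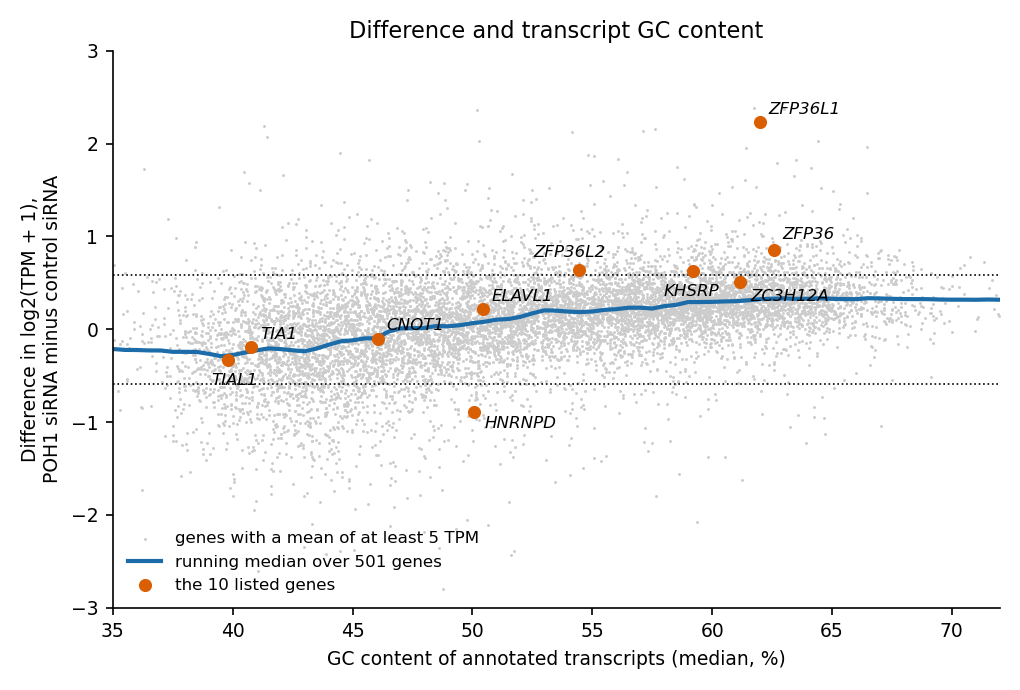
Log2 difference (POH1 siRNA minus control siRNA) against the median GC content of a gene's annotated transcripts (%), for genes with a mean of at least 5 TPM (grey), their running median along GC content (blue line) and the 10 listed genes (orange). Dotted lines mark 1.5-fold, and 47 of the 10114 genes fall outside the axes; TIA1, TIAL1 and CNOT1 lie close to the running median, while ZFP36L1 and HNRNPD lie far from it.

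The wider machinery was described with 9 lists of 159 genes in all, of which 148 had a mean of at least 1 TPM. Of these, 46 share exon sequence with another such gene on the same or the opposite strand, and their values are uncertain where reads of the pair could not be told apart. In the CCR4-NOT complex, whose subunits shorten poly(A) tails, 1 of 10 measured genes was at least 1.5-fold lower, 9 lay within 1.5-fold and 0 were higher (median difference -0.06, against 0.12 over all genes), beside 8.88% lower among all genes. After GC adjustment 0 were lower and the median was 0.15, as over all genes. The lower one was the deadenylase CNOT6, at 2.62 and 1.32 TPM, which was at -0.27 after GC adjustment and was also not counted with a pseudocount of 5. Its counterpart CNOT6L was under the 1 TPM mean, at 0.587 and 0.281 TPM. The deadenylase CNOT7 was at 2.48 and 2.42 TPM and its paralogue CNOT8 at 15.7 and 21.4 TPM, so CNOT8 was the most abundant of the 4 catalytic subunits in both libraries. Of the remaining subunits, CNOT3 was highest, at 84.0 and 107 TPM. CNOT2 (21.3 and 18.0 TPM), CNOT4 (9.85 and 12.1 TPM), CNOT9 (27.998 and 22.2 TPM), CNOT10 (29.1 and 23.7 TPM) and CNOT11 (22.4 and 22.7 TPM) lay within 1.5-fold. Of the 10 measured genes, 6 (CNOT1, CNOT2, CNOT3, CNOT7, CNOT8 and CNOT11) overlap a gene on the opposite strand.

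Among proteins that bring CCR4-NOT to messages, together with the other deadenylases, 2 of 13 were at least 1.5-fold higher and 0 were lower (median difference 0.23). Among all genes, 10.2% were higher and 8.88% were lower. After GC adjustment 3 were higher and 0 were lower, beside 12.6% and 5.19% of all genes. The 2 higher genes as deposited were TOB1, an antiproliferative adaptor of the complex, at 19.4 and 36.5 TPM, and TNRC6A, the GW182 protein of microRNA silencing, at 11.0 and 20.7 TPM. TOB2, at 12.5 and 19.1 TPM, had a log2 difference of 0.58 and lay just inside 1.5-fold on this scale. TOB1 overlaps TOB1-AS1 on the opposite strand.

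In decapping and 5′ decay, 6 of 16 measured genes were at least 1.5-fold lower and 0 were higher (median difference -0.19), beside 8.88% lower among all genes. After GC adjustment 3 were lower and 1 was higher, beside 5.19% and 12.6% of all genes. Within it, LSM1 to LSM7 encode the ring that binds the shortened tail and promotes decapping, although LSM2 to LSM7 also serve the nuclear U6 particle. LSM2 was at 180 and 65.2 TPM, 2.77-fold lower, LSM3 at 30.6 and 9.16 TPM, 3.34-fold lower, LSM6 at 13.3 and 4.50 TPM, 2.96-fold lower, and LSM5 at 16.2 and 8.74 TPM, 1.86-fold lower. LSM1 (59.6 and 41.5 TPM, log2 difference -0.51), LSM4 (249 and 265 TPM) and LSM7 (212 and 227 TPM) lay within 1.5-fold. Between these 2 libraries, the differences of the ring's subunits ran from -1.64 (LSM3) to 0.10 (LSM7). The helicase DDX6 (15.1 and 8.41 TPM) and the decapping enzyme DCP2 (5.98 and 3.17 TPM) were the other lower genes. After GC adjustment LSM2 (-1.42), LSM3 (-1.49) and LSM6 (-1.03) remained at least 1.5-fold lower, and LSM5 (-0.44), DDX6 (-0.41) and DCP2 (-0.33) did not. On the opposite strand, LSM1 overlaps BAG4, LSM3 overlaps XPC and LSM7 overlaps SPPL2B.

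In the 3′ to 5′ route, the exosome and its SKI cofactors, 3 of 17 genes were at least 1.5-fold lower and 0 were higher (median difference -0.13). Among all genes, 8.88% were lower and 10.2% were higher. After GC adjustment 1 was lower and 0 were higher, beside 5.19% and 12.6% of all genes. EXOSC8, a subunit of the exosome ring, was at 30.2 and 7.08 TPM, 4.27-fold lower (log2 difference -1.95). Its exons overlap those of SUPT20H on the opposite strand, which leaves its value uncertain. EXOSC3 was at 6.54 and 3.89 TPM and the SKI subunit SKIC3 at 8.38 and 5.13 TPM, and both lay within 1.5-fold after GC adjustment (-0.32 and -0.23), whereas EXOSC8 was at -1.57. The catalytic subunits DIS3 (1.68 and 1.89 TPM), DIS3L (8.27 and 9.94 TPM) and EXOSC10 (95.8 and 87.3 TPM) lay within 1.5-fold.

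**Figure D3:**
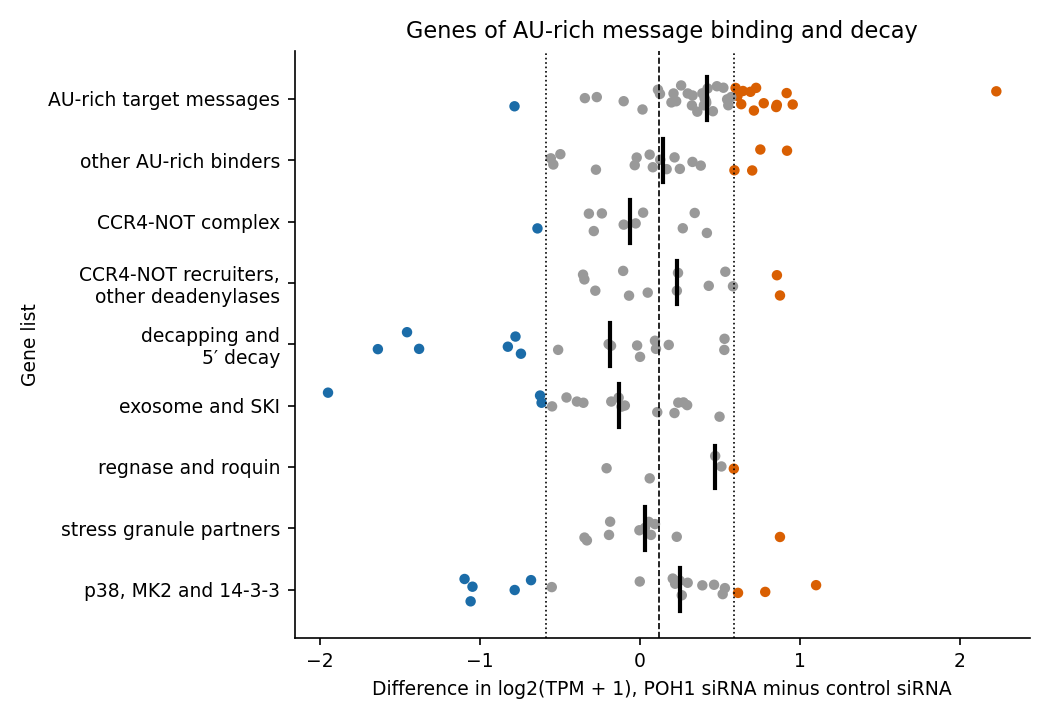
Log2 difference (POH1 siRNA minus control siRNA) of each measured gene in 9 lists (points; orange at least 1.5-fold higher, blue at least 1.5-fold lower, grey within), with list medians (black bars), the median of all genes at 0.12 (dashed line) and 1.5-fold (dotted lines). Vertical scatter within a list has no meaning; the lower points at the far left are LSM and EXOSC genes, and ZFP36L1 is the point at 2.23 among the target messages.

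Of other proteins that bind AU-rich or related sequences, 18 were measured. Of these, 4 were higher by at least 1.5-fold, beside 10.2% of all genes, and 0 were lower (median difference 0.15). After GC adjustment 6 were higher, beside 12.6% of all genes, and with the median scaling 2 were. Among the higher genes, RBM38, which encodes a p53-induced RNA-binding protein, was at 19.9 and 38.5 TPM, CELF1 at 21.0 and 36.1 TPM, and FUBP3, of the same family as KHSRP, at 22.6 and 37.3 TPM. The closest relatives of HNRNPD lay within 1.5-fold. HNRNPDL was at 84.2 and 57.6 TPM, lower like HNRNPD and near the line (log2 difference -0.54), and HNRNPAB at 250 and 244 TPM. The neuronal relatives of ELAVL1 were low, with ELAVL3 listed at 0 in both libraries and ELAVL2 at 1.09 and 1.35 TPM. CELF1 and HNRNPAB overlap genes on the opposite strand.

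Of the regnase and roquin list, 3 of 8 genes were under the 1 TPM mean. Of the other 5, 1 was at least 1.5-fold higher and 0 were lower, beside 10.2% and 8.88% of all genes. The higher one was the helicase gene UPF1, at 59.3 and 89.5 TPM, with a log2 difference of 0.59 at the line. It lay within 1.5-fold after GC adjustment (0.44), where ZC3H12C (0.86) was the 1 higher gene, beside 12.6% of all genes. No gene of the list was counted as higher under the 3 other scalings or with a pseudocount of 5. With a pseudocount of 0.1, 2 genes of the list were counted as higher. ZC3H12A was the most abundant gene of the list, and its paralogue ZC3H12C was at 2.14 and 3.35 TPM. Of 11 genes of stress granules, which include TIA1 and TIAL1, 1 was at least 1.5-fold higher and 0 were lower (median difference 0.03), beside 10.2% and 8.88% of all genes. This gene was ATXN2, at 23.1 and 43.2 TPM. ATXN2 overlaps genes on the opposite strand. The granule nucleator G3BP1 was at 25.9 and 20.2 TPM and G3BP2 at 11.2 and 11.8 TPM.

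The p38 and MK2 kinases phosphorylate ZFP36 proteins, and 14-3-3 proteins bind the phosphorylated form and hold it away from CCR4-NOT. In this list of 19 genes, 3 were higher and 5 lower by at least 1.5-fold (median difference 0.25), beside 10.2% and 8.88% of all genes. After GC adjustment 3 of the list were higher and 3 lower, beside 12.6% and 5.19% of all genes. Among the p38 kinases, MAPK14 (p38 alpha) was at 21.5 and 9.53 TPM, 2.26-fold lower, while MAPK13 (p38 delta) was at 40.1 and 69.7 TPM and MAPK12 (p38 gamma) at 22.8 and 35.5 TPM, both higher. MAP2K6, a kinase that activates p38, was at 10.8 and 4.72 TPM, 2.29-fold lower. MAPKAPK2, which encodes MK2 itself, was at 124 and 149 TPM, within 1.5-fold. Of 7 genes of 14-3-3 proteins, YWHAH was at 55.5 and 120 TPM, 2.17-fold higher, and YWHAZ at 416 and 199 TPM and YWHAB at 77.4 and 44.6 TPM were 2.09-fold and 1.74-fold lower. Summed over the 7 genes, the level was 1389 and 1241 TPM. PPP2CA, a catalytic subunit of the phosphatase PP2A, was at 33.3 and 20.4 TPM. After GC adjustment MAPK14 (-0.85), MAP2K6 (-0.70) and YWHAZ (-0.78) were still at least 1.5-fold lower, YWHAB (-0.41) and PPP2CA (-0.25) were not, and MAPK12 (0.42) was no longer higher. MAPK12 shares exon sequence with HDAC10.

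The last list held messages known to be bound by ZFP36 proteins or to carry AU-rich elements. It was chosen with earlier results of these data known, and action of ZFP36 proteins on these messages was not tested. Of 38 measured target messages other than ZFP36 and ZFP36L1, 11 were at least 1.5-fold higher, 1 was lower and 26 lay within 1.5-fold, beside 10.2% higher and 8.88% lower among all genes. After GC adjustment 10 were higher and 0 lower, beside 12.6% and 5.19%. Their median difference was 0.41, against 0.12 over all genes, and 0.34 after GC adjustment, against 0.15 over all genes. NFKBIZ, a nuclear cofactor of NF-kB, was at 24.9 and 49.2 TPM, EGR1, an immediate early transcription factor, at 1.39 and 3.50 TPM, and CXCL3 at 180 and 326 TPM. IL6 was at 176 and 267 TPM, just past 1.5-fold (log2 difference 0.60), and CXCL1, with clustered motifs, was at 1234 and 1772 TPM, within it (log2 difference 0.52). CXCL8 (282 and 375 TPM), VEGFA (126 and 187 TPM) and PTGS2 (11.8 and 17.7 TPM) also had higher values within 1.5-fold. The 1 lower message was HIF1A, at 67.3 and 38.7 TPM (log2 difference -0.78, and -0.35 after GC adjustment). This list shares many genes with known NF-kB targets, and the part of transcription in these values was not tested. IL6, IER3 and TNFAIP3 overlap genes on the opposite strand.

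The target messages were also split by the motif. Of the 38, 29 held at least 1 TATTTAT in the 3′ UTR examined and had a median difference of 0.40, with 8 at least 1.5-fold higher and 1 lower. The 9 with 0 matches had a median difference of 0.48, with 3 higher and 0 lower. A motif of other letters, or one in a shorter or longer 3′ UTR, would not be seen here.

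Over all measured protein-coding genes the median difference as deposited was much the same at each motif count. The median difference was 0.13 in the 8462 genes with 0 matches, 0.11 in the 2220 with 1, 0.10 in the 764 with 2 and 0.14 in the 582 with 3 or more. The share at least 1.5-fold higher was 8.89%, 9.64%, 10.7% and 12.2% in the same order. Genes with more matches had a lower GC content, from a median of 53.1% with 0 matches to 44.1% with 3 or more, and longer 3′ UTRs, from 607 to 4136 bases. After GC adjustment the medians were 0.12, 0.21, 0.30 and 0.31 in the same order, and the share of genes at least 1.5-fold higher went from 9.93% to 24.2%, against 12.6% over all genes adjusted in this way. The shares at least 1.5-fold lower after adjustment were 4.81% with 0 matches and 3.26% with 3 or more. Motif count, 3′ UTR length and GC content move together across genes, and their separate parts were not tested.

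**Figure D4:**
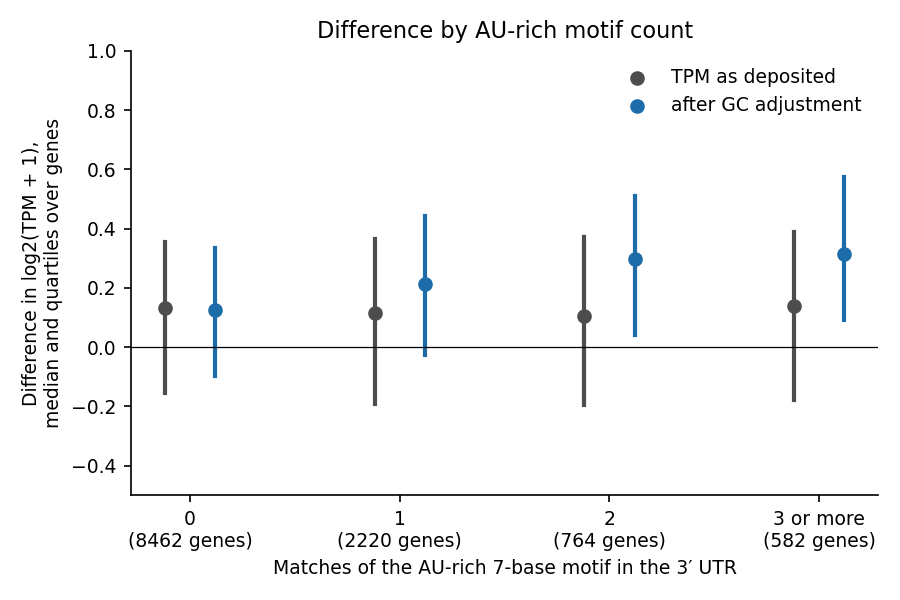
Median (points) and quartiles (bars) over genes of the log2 difference (POH1 siRNA minus control siRNA) by the number of TATTTAT matches in the 3′ UTR, as deposited (grey) and after GC adjustment (blue). The deposited medians lie between 0.10 and 0.14 in the 4 classes, and the adjusted medians go from 0.12 with 0 matches to 0.31 with 3 or more.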

How the data were processed

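RNA of PC3 cells was sequenced after control siRNA or POH1 siRNA, with 1 library per group. Libraries were mRNA-seq libraries made from Trizol-extracted RNA, per the labels' protocols. Per the submitters' processing notes, CASAVA, HISAT2 and hg19 were used; the annotation, the quantification tool, strand use and read numbers are not stated there. The authors deposited TPM per gene, which summed to 999955 and 999968. Of 58174 identifiers, 57392 were given a symbol from a name table. GENCODE release 29, on GRCh38 and not hg19, gave GC content (median over a gene's transcripts), gene overlaps and the 3′ UTR of the transcript with the longest coding part, matched by identifier, so no coordinates are printed.

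Differences used a pseudocount of 1, genes with a mean of at least 1 TPM, and counts at 1.5-fold. GC adjustment used a running median over 4.95% of the 10114 genes with a mean of at least 5 TPM at a time, ordered by GC content, and 99.8% of genes had a GC content. The calculations were tested on simulated data. With 1 library per group no p-value was computed. The members and lists were chosen with earlier results of these data known. Named were all members, the 3 genes farthest from 0 in each list, all CCR4-NOT genes, overlapping genes and the 5 genes nearest to ZFP36L1 in both values. Others were chosen after their values were seen: HNRNPDL, HNRNPAB, ELAVL2, ELAVL3, TOB1-AS1, LSM1, LSM4, LSM5, LSM7, DDX6, DCP2, DIS3, DIS3L, EXOSC10, G3BP2, MAPK12, MAPK13, MAP2K6, MAPKAPK2, YWHAB, PPP2CA, IL6, CXCL1, CXCL2, CXCL3, CXCL8, VEGFA, PTGS2, HIF1A, IER3 and TNFAIP3, as were the splits into LSM, p38 and 14-3-3 genes. Some genes are not reported here. Alternatives were pseudocounts of 0.1 and 5, other filters, 3 other scalings and GC adjustment. Analyses used Python with pandas and numpy.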

Additional observations from a re-analysis of the deposited data

How the results depend on the processing

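Over 7 alternatives the ZFP36L1 difference ran from 1.99 to 2.32, and over 5 the summed family difference ran from 1.40 to 1.56, always at least 1.5-fold higher. ZFP36 ran from 0.60 to 0.95. The count of 4 higher members was 2 (ZFP36L1 and ZFP36) when scaled to a median log2 ratio of 0, which lowers every log2 ratio by 0.14, and also 2 with a trimmed mean of log2 ratios and without mitochondrial genes and the 50 most abundant; ZFP36L2 and KHSRP, at 0.64 and 0.63, then fell just under the line. Of all genes, 1535 were counted as higher and 1333 as lower as deposited, 960 and 1845 with the median scaling, 1002 and 1799 with the trimmed mean, 1345 and 1702 without mitochondrial and abundant genes, and 1886 and 778 after GC adjustment. HNRNPD was at -0.56, so that 0 members were lower, when the GC adjustment used the transcript with the longest coding part, a setting chosen after seeing the data. Over the 9 pathway lists, the number of higher genes was 24 as deposited, 15 with the median scaling, 15 with the trimmed mean and 27 after GC adjustment. The number of lower genes was 16 as deposited, 23 with the median scaling, 22 with the trimmed mean and 7 after GC adjustment. Without mitochondrial and abundant genes, 18 were higher and 20 lower. Single lists moved in 27 of 243 comparisons with an alternative. The higher target messages, ZFP36 and ZFP36L1 included, numbered 13 as deposited and 8 with either scaling by ratios, and the lower exosome genes 3 as deposited, 5 with the median scaling and 1 after GC adjustment, with a pseudocount of 5 or without genes that share exon sequence, the last chosen after seeing the data. The lower decapping genes numbered 6 as deposited, 3 after GC adjustment and 7 with either scaling by ratios. The lower p38 and 14-3-3 genes numbered 5, 3 and 6 in the same order. The other AU-rich binders with higher values numbered 4 as deposited and 2 with either scaling by ratios, where 3 were lower, and 6 after GC adjustment. The other lists moved by at most 2 genes. No value passed from at least 1.5-fold higher to at least 1.5-fold lower or back. The median of genes with 3 or more motifs less that of genes with 0 was 0.0046 as deposited, -0.023 with a pseudocount of 5 and 0.19 after GC adjustment. Mitochondrially encoded genes held 16.2% of the control library and 13.1% of the POH1 siRNA library. The unknown depth limits low genes such as EGR1 and CNOT6 most. No paired analysis was possible because each group had 1 library.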
